A study of Mus musculus with 6 samples.

Results

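The genes described here are 7 that red blood cells and their precursors use, measured in whole mouse hearts: the α-globin genes Hba-a1 and Hba-a2, the adult β-globin genes Hbb-bs and Hbb-bt, the haem enzyme gene Alas2, the red cell metabolic enzyme gene Bpgm and the red cell anion exchanger gene Slc4a1. All 7 were found by name among the 55401 genes of the deposited table. They were chosen by their counts in the control and Ang II libraries, which stood lower after Ang II, so their levels and changes in that comparison are given as a description. Counts of those past a threshold are printed only beside the share of all genes. All 7 passed the filter on low counts, Slc4a1 with counts in 4 of the 6 libraries.

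Hearts of 6 C57BL/6 mice, 6 to 8 weeks old, gave the poly(A) RNA. In 3 of them angiotensin II (Ang II) was the treatment and 3 served as controls. Ang II is a peptide that constricts vessels and raises blood pressure. The labels give neither the dose, route and duration of Ang II nor what the controls received, and do not say whether the hearts were flushed of blood. Each of the 6 libraries held between 51202916 and 63564869 estimated counts.

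Adult haemoglobin is a tetramer of α- and β-globin chains, each of which holds a haem group that binds oxygen. Mature mammalian red cells have no nucleus. Reticulocytes, the youngest circulating red cells, still carry messenger RNA left from the marrow, and most of it encodes globins. The RNA of a heart sample therefore holds some globin transcripts from blood in its vessels and chambers, beside the heart muscle's own haem protein, myoglobin. In bulk tissue, fewer cells of a type and less RNA per cell cannot be told apart.

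The coding sequences of the globin pairs are shown first, because they are nearly the same in both copies of a pair. In the reference transcripts, Hba-a1 and Hba-a2 shared 428 of 429 coding bases, and Hbb-bs and Hbb-bt 443 of 444. The stretches around the 2 differing positions read as follows, from the 5′ end, with the differing base in capitals and positions counted from 1 at the A of the start codon.
Hba-a1, coding bases 361 to 401: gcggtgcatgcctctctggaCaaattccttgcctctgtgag
Hba-a2, coding bases 361 to 401: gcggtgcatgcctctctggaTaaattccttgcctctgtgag
Hbb-bs, coding bases 397 to 437: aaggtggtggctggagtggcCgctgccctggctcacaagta
Hbb-bt, coding bases 397 to 437: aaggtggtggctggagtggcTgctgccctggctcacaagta
The substitutions were C381T between the α pair, from Hba-a1 to Hba-a2, and C417T between the β pair, from Hbb-bs to Hbb-bt. Over whole transcripts, untranslated ends included, 86.9% of the distinct 50-base words of Hba-a2 also occurred in Hba-a1, and 67.5% of those of Hba-a1 in Hba-a2. For the β pair, 65.8% of the words of Hbb-bs occurred in Hbb-bt and 58.3% of those of Hbb-bt in Hbb-bs. Reads from the shared words fit either copy, whereas the remaining words belong to 1 copy of the pair.

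The promoters were compared because the 4 globin genes moved together. The table of RefSeq promoters (GRCm38.p6) held 6 of the 7 genes, all but Slc4a1. Each was taken as the 250 bases before the RefSeq start, and is printed only up to the gene's start in the deposited table. For Hba-a2 this leaves 247 bases (chr11:32296242-32296488, plus strand), for Hbb-bs all 250 (chr7:103827929-103828178, minus strand), for Hbb-bt 177 (chr7:103813997-103814173, minus strand) and for Alas2 208 (chrX:150547167-150547374, plus strand). Capitals mark the letters of 4 motifs, searched on both strands, so that a match on the other strand shows as its reverse complement. The first is GATAA, a core of sites bound by GATA factors. The next is CACCC, the box bound by Krüppel-like factors. The others are CCAAT and a TATA box spelled ATATAA. No match of one motif overlapped a match of another.
Hba-a2: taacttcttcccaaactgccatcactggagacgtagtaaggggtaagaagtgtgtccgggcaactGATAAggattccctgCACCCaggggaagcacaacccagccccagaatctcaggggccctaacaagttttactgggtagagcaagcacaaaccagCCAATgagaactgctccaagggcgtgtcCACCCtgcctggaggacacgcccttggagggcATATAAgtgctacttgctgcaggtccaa
Hbb-bs: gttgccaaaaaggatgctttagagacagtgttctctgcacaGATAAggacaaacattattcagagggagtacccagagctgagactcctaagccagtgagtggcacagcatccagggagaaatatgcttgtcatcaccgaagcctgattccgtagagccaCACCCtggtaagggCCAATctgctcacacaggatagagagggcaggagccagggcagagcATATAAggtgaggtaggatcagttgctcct
Hbb-bt: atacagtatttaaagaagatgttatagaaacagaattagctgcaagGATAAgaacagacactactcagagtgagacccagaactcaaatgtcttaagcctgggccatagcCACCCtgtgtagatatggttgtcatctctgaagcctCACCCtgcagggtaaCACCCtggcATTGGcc
Alas2: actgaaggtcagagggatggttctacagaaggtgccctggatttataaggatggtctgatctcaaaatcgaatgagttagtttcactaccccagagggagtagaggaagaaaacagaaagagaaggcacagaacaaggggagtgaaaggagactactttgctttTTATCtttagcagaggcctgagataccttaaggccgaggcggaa
The Hba-a1 promoter matched that of Hba-a2 at all 247 bases compared, at an offset of 3, whereas those of Hbb-bs and Hbb-bt matched at 127 of 249. Over the full 250 bases, all 4 globin promoters held each of the 4 motifs. The ATATAA of Hbb-bt and 1 of its 3 CCAAT matches lie in the 73 bases not printed. Another CCAAT match is cut by the end of the print, whose last 2 bases, left unmarked, begin it. Of 32851 RefSeq promoters cut to the same 250 bases, 22.6% held GATAA, 52.0% CACCC, 33.8% CCAAT and 9.10% ATATAA, and 153 (0.466%) held all 4. The motifs were not picked blind to globin genes, since the CACCC box is a known element of the β-globin promoter. The α promoters were also the same sequence at the bases compared. The 4 globin promoters beside that share are therefore a description and not a test of enrichment. The Bpgm promoter held CCAAT at 3 places and none of the other motifs. The Alas2 promoter, over its 250 bases, held 1 GATAA match and 3 CACCC matches, the latter after the stretch printed. A match is a description of the letters and says nothing of a factor's binding.

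2 features of the libraries touch what follows. Ang II replicate 1 stood apart, with a mean leading log2 distance of 2.00 to the other libraries against 1.30 to 1.57 for the rest. Control replicates 1 and 3 held transcripts of 10 hepatocyte markers, a list chosen after their values were seen, that summed to 123 and 60.5 CPM (read counts normalised to edgeR's scaled library size). The same list summed to 3.29 CPM in control replicate 2 and to 4.28, 5.69 and 5.72 CPM in the Ang II libraries, in replicate order. Albumin (Alb), its most abundant gene, had 2009 and 1155 counts in control replicates 1 and 3 and 42 or fewer in the other 4 libraries. All 9 cardiomyocyte markers were detected in every library, with the myosin gene Myh6 between 10010 and 21284 CPM.

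The 4 globin genes were lower in every Ang II heart than in any control heart. Together they took 0.160% of the counts in control replicate 1 (95% Wilson interval 0.159% to 0.161%), 0.0914% in replicate 2 (0.0906% to 0.0922%) and 0.137% in replicate 3 (0.136% to 0.138%). In Ang II replicates 1, 2 and 3 the shares were 0.0501% (0.0495% to 0.0507%), 0.0487% (0.0481% to 0.0492%) and 0.0517% (0.0511% to 0.0522%). These intervals cover counting error only. The controls spread over a wide range while the Ang II hearts lay close together, and the lowest control was still above every Ang II library. Mitochondrial transcripts, which enter the total, took 47.6%, 37.3% and 41.3% of the counts in control and 37.4%, 36.4% and 35.8% after Ang II, with the controls in the same order as for the globins. With these transcripts left out of the total, the globin shares were 0.306%, 0.146% and 0.233% in control and 0.0800%, 0.0765% and 0.0805% after Ang II, again without overlap. With them in the total, the group means were 0.129% ± 0.0350 and 0.0501% ± 0.00151 (SD, n = 3), so that control hearts held 2.58 times the Ang II share. Against control replicate 2 alone, the library with the lowest hepatocyte level, the log2 ratio of the share was -0.87, and with all 3 controls it was -1.37. The part of the hepatocyte transcripts in these values was not tested.

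Hba-a1 (ENSMUSG00000069919; GRCm38 chromosome 11, 32283511 to 32284465, plus strand), which encodes an α-globin chain, gave 536, 204 and 374 CPM in control replicates 1, 2 and 3. In the Ang II libraries, in the same order, it gave 147, 121 and 119 CPM; all values by library below are in this order of replicates. Control replicate 1 was the highest library and control replicate 2 the lowest control, and the groups did not overlap. The log2 change was -1.53 (SE 0.35), or -1.63 without Ang II replicate 1 and -0.68 without control replicates 1 and 3.

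Hba-a2 (ENSMUSG00000069917; chromosome 11, 32296489 to 32297298, plus strand), the other adult α-globin gene, stood at 488, 189 and 331 CPM in control and at 114, 108 and 110 CPM in the Ang II libraries. On the CPM scale its Ang II values lay within 1.06-fold of each other, the closest of the globins, while its controls spread over 2.58-fold. The deposited FPKM, which edgeR's scaling does not enter, spread more in the Ang II libraries, at 133, 164 and 171. For Hba-a1 they were 140, 151 and 151. The log2 change was -1.60 (SE 0.33), and -0.79 without control replicates 1 and 3.

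Hbb-bs (ENSMUSG00000052305; chromosome 7, 103826534 to 103827928, minus strand) encodes an adult β-globin chain. It stood at 699, 291 and 422 CPM in control and at 254, 151 and 166 CPM in the Ang II libraries. On the CPM scale Ang II replicate 1 lay close under control replicate 2, so the gap between the groups was narrow. On the FPKM scale it was wider, with 256 in Ang II replicate 1 and 400 in control replicate 2. The log2 change of -1.31 (SE 0.37) was -1.57 without Ang II replicate 1 and -0.63 without control replicates 1 and 3.

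Hbb-bt (ENSMUSG00000073940; chromosome 7, 103812524 to 103813996, minus strand), the second adult β-globin gene of this strain, stood at 294, 110 and 204 CPM in control and at 74.4, 60.6 and 62.2 CPM in the Ang II libraries. The order of the controls was again 1, 3, 2, and the groups did not overlap. The log2 change was -1.62 (SE 0.35), and -0.75 without control replicates 1 and 3.

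**Figure D1:**
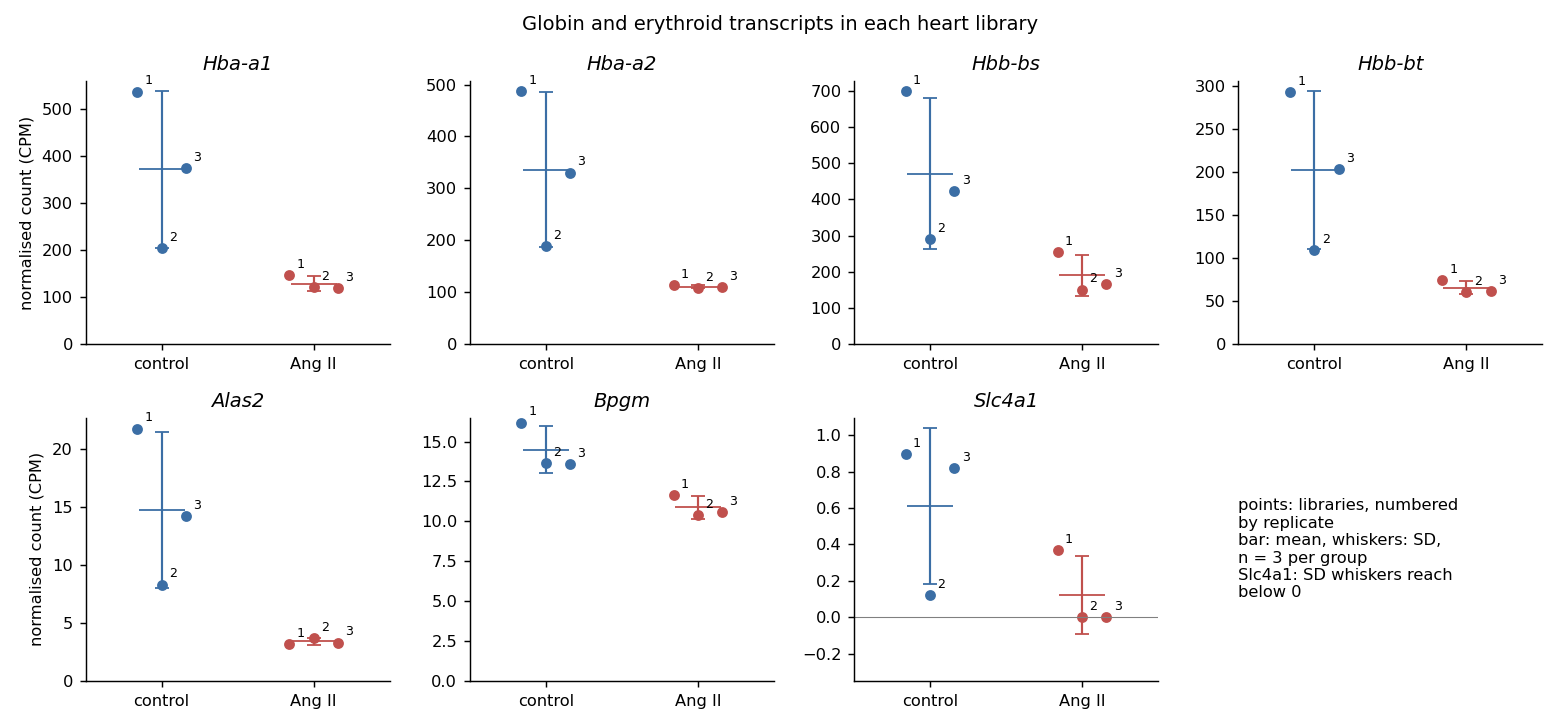
Normalised counts (CPM, linear axes) of the 7 genes, with 1 point per library numbered by replicate; bars are means and whiskers SD (n = 3 per group). For 6 genes every Ang II library lies below every control, whereas the Slc4a1 groups overlap at under 1 CPM.

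Alas2 (ENSMUSG00000025270; chromosome X, 150547375 to 150570638, plus strand) encodes the erythroid form of the enzyme that starts haem synthesis. It stood at 21.7, 8.29 and 14.2 CPM in control and at 3.17, 3.71 and 3.30 CPM in the Ang II libraries. On the CPM scale the Ang II libraries again lay close together and all controls stood above them. The FPKM were 6.65, 3.62 and 5.57 in control and 1.01, 1.56 and 1.42 in the Ang II libraries. The log2 change was -2.11 (SE 0.35), -2.07 without Ang II replicate 1 and -1.30 without control replicates 1 and 3.

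Bpgm (ENSMUSG00000038871; chromosome 6, 34476207 to 34505613, plus strand) encodes bisphosphoglycerate mutase, which makes the metabolite that lowers the oxygen affinity of haemoglobin; many tissues express it at a low level. It stood at 16.2, 13.7 and 13.6 CPM in control and at 11.7, 10.4 and 10.6 CPM in the Ang II libraries. The groups did not overlap, but the Ang II mean was 75.0% of the control mean, against 32.5% to 40.4% for the globins and 23.1% for Alas2. The log2 change was -0.41 (SE 0.15), and -0.35 without control replicates 1 and 3.

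Slc4a1 (ENSMUSG00000006574; chromosome 11, 102348824 to 102365280, minus strand) encodes band 3, the exchanger of chloride and bicarbonate in the red cell membrane. Estimated counts in control replicates 1, 2 and 3 were 41, 8 and 45, and those after Ang II were 16, 0 and 0. A count of 0 allows up to 3 counts, or 0.0472 and 0.0477 CPM of the unscaled totals in Ang II replicates 2 and 3. The groups overlapped, since Ang II replicate 1 was above control replicate 2. Its fitted log2 change of -2.43 (SE 1.63) was -0.05 without control replicates 1 and 3, and at such counts it depends on the fit.

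Of the 7 genes, 6 had groups that did not overlap and were lower in Ang II hearts. Over all 16759 genes tested, 9.21% did so. All 7 log2 changes were below 0, as were 49.1% over all genes. At an adjusted p under 0.05 in edgeR, 0 of the 7 passed in either direction. The share over all genes was 0.0358%, made up of 0.0% lower and 0.0358% higher. At an unadjusted p under 0.05 in edgeR, 6 of the 7 were lower, beside 3.94% of all genes lower and 3.57% higher. DESeq2 called 4 of the 7 lower, Hba-a1, Hba-a2, Hbb-bt and Alas2, beside 0.698% of all genes lower, 0.949% higher and 1.65% in either direction. Without Ang II replicate 1, 0 of the 7 passed in edgeR, where 0.204% of all genes were lower, 0.527% higher and 0.73% either. Because these values chose the genes, the counts support nothing further. The median log2 change of the 7 was -1.60, and that of all genes tested was 0.01.

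**Figure D2:**
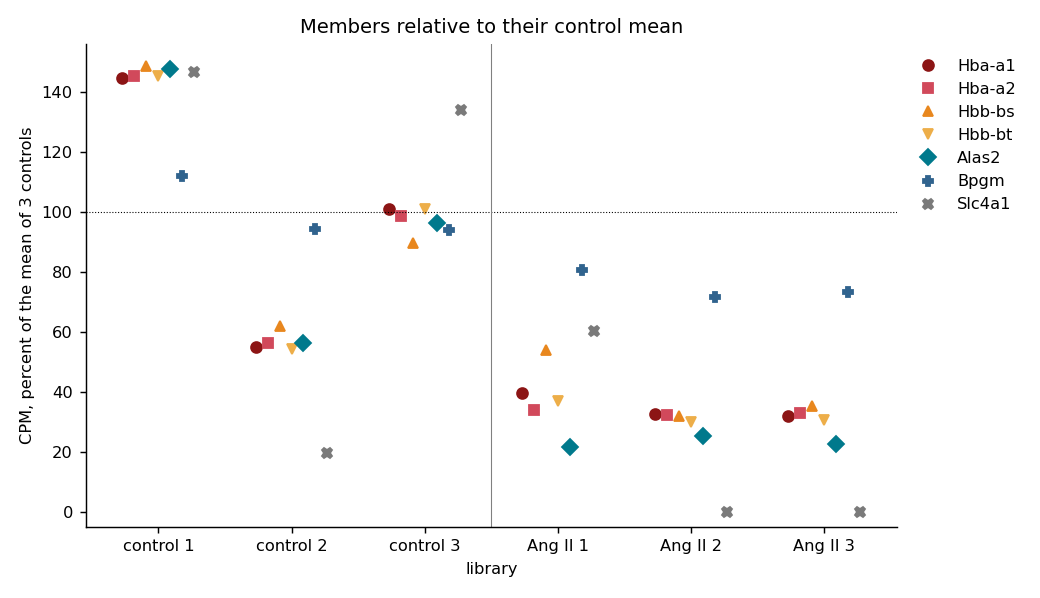
CPM of each gene in each library as a percent of its mean over the 3 controls (y axis), by library (x axis), with 1 marker shape per gene. The globins and Alas2 sit together within each control library, and in the Ang II libraries Alas2 lies below the globins and Bpgm above them.

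The 4 globins and Alas2 followed each other closely in the 3 controls. Relative to its control mean, each globin gene and Alas2 stood at 144% to 148% in replicate 1, at 54.2% to 61.9% in replicate 2 and at 89.7% to 101% in replicate 3. Bpgm stood at 112%, 94.3% and 93.9%, a narrower spread. Slc4a1, at its few counts, stood at 147%, 19.6% and 134%, the same order of controls with a lower replicate 2. Over the 6 libraries, Pearson's r on log2(CPM + 0.5) ran from 0.956 to 1.00 among the 4 globins and from 0.926 to 0.992 between Alas2 and the globins. It ran from 0.939 to 0.969 between Bpgm and the globins, and from 0.862 to 0.922 between Slc4a1 and the globins. These are descriptions over 6 libraries that include the difference between the groups, and the globin pairs share sequence. Alas2 gave 10.8, 10.4 and 10.7 counts per 1000 globin counts in control replicates 1, 2 and 3, nearly the same ratio although the summed globin CPM of these libraries was 2017, 794 and 1331. In Ang II replicates 1, 2 and 3 it gave 5.38, 8.44 and 7.22, each below every control. Group means were 10.6 ± 0.168 and 7.01 ± 1.54 (SD, n = 3), and the groups did not overlap.

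Levels between genes were compared on the deposited FPKM scale, which accounts for transcript length. In control hearts Hbb-bs had the highest FPKM (531 ± 136, SD, n = 3), followed by Hba-a2 (436 ± 124), Hba-a1 (396 ± 117) and Hbb-bt (249 ± 75.1). Neighbours in this order differed by less than their spread over the controls except Hba-a1 and Hbb-bt, whose means differed by more than either SD. The genes rose and fell together over the controls, and within each control library the order was the same. In Ang II hearts the means had the same order: 227 ± 28.7 for Hbb-bs, 156 ± 20.3 for Hba-a2, 148 ± 6.28 for Hba-a1 and 87.1 ± 4.84 for Hbb-bt. Hba-a2 and Hba-a1 there differed by less than the SD of Hba-a2, and in Ang II replicate 1 Hba-a1 (140) stood above Hba-a2 (133). Alas2 stood at 5.28 ± 1.54 and 1.33 ± 0.286 FPKM, Bpgm at 3.64 ± 0.349 and 2.83 ± 0.279, and Slc4a1 at 0.106 ± 0.0714 in control and at 0.0547 in Ang II replicate 1, with the other 2 Ang II libraries listed at 0.

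The make-up of the globin transcripts differed less than their amount. The ratio of summed α to summed β FPKM was 1.05, 0.998 and 1.14 in control and 0.807, 1.10 and 1.02 in Ang II replicates 1, 2 and 3. Ang II replicate 1 was the lowest and the other 2 Ang II libraries lay within the range of the controls. Hba-a1 made up 46.9% to 48.2% of the α FPKM in control and 51.4%, 47.9% and 47.0% in Ang II replicates 1, 2 and 3. Hbb-bt made up 31.5%, 29.1% and 34.5% of the β FPKM in control and 24.2%, 30.5% and 29.1% in Ang II replicates 1, 2 and 3. In all 3 measures Ang II replicate 1 lay outside the range of the other 5 libraries. The split within a pair depends on how reads from the shared stretches were assigned, which is not given in the sources used here.

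**Figure D3:**
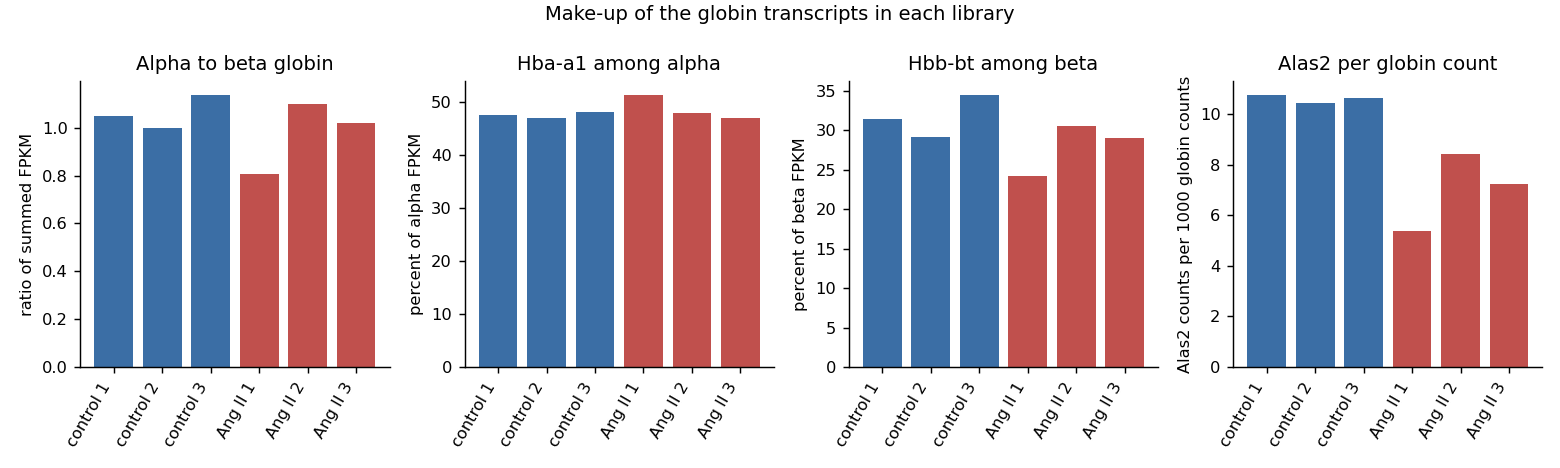
Bars give, for each library, the ratio of α to β globin FPKM, the percent of α FPKM from Hba-a1, the percent of β FPKM from Hbb-bt, and Alas2 counts per 1000 globin counts. In the first 3 panels Ang II replicate 1 stands apart from the other 5 libraries, and in the last all 3 Ang II bars lie below the controls.

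Of the 10 other globin genes listed, 6 were not detected. Embryonic Hba-x, Hbb-y and Hbb-bh1, the related Hbb-bh2 and Hbb-bh0, and Hbq1a had 0 counts in all 6 libraries, which allows up to 3 counts in each. Hbq1b had 7 counts in control replicate 1 and 0 in the other 5 libraries. Myoglobin (Mb), the oxygen store of heart muscle, stood at 3452, 3862 and 6820 CPM in control and at 12773, 7244 and 7412 CPM in the Ang II libraries. Its groups did not overlap, in the direction opposite to the blood globins (7.97% of all genes were higher without overlap), and it did not pass edgeR's test over all genes (log2 change 0.96, SE 0.36, adjusted p = 0.627). On the FPKM scale Mb was 0.851, 2.42 and 2.54 times the 4 globins together in control replicates 1, 2 and 3 and 10.8, 8.19 and 8.06 times in Ang II. Cytoglobin (Cygb), found in fibroblasts, gave a log2 change of -0.04 (SE 0.13, edgeR adjusted p = 0.95).

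Among other genes of the red cell membrane and of late erythroid cells, 2 were lower in every Ang II library than in any control (9.21% of all genes), and 0 were higher. Of 30 symbols listed, 28 were found, with Fam46c present under its newer symbol Tent5c and Ahsp not matched, and 19 were tested. By edgeR 0 passed over all genes. DESeq2 called 2, both lower (0.698% of all genes). Folds were below 0 for 13 (49.1% of all genes) and above 0 for 6, with a median log2 change of -0.12 against 0.01 for all genes. At an unadjusted p under 0.05 edgeR gave 2 lower, where 3.94% of all genes were lower.

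Car1, a red cell carbonic anhydrase, gave 3.04, 2.85 and 0 CPM in control and 0.943, 0.782 and 0 CPM in the Ang II libraries, so control replicate 3 and Ang II replicate 3 were both at 0. Red cell genes at 0 counts in every library were Epb42, Rhag, Tspo2, Hemgn and Cldn13. Prdx2, a peroxiredoxin abundant in red cells and present in most tissues, gave a log2 change of 0.47 (SE 0.28). The membrane skeleton genes Sptb and Ank1 gave log2 changes of 0.27 (SE 0.18) and -0.76 (SE 0.50) with overlapping groups for each.

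Transcription factors of erythroid cells ranged from 0 to 14.4 CPM, the latter for Lmo2 in Ang II replicate 1. Gata1, the master factor of the lineage, had 4 counts in control replicate 1 and 0 in the other 5 libraries, and Klf1, which activates the β-globin promoter through its CACCC box, and Gfi1b had 0 in all 6. Tal1 and Lmo2, which endothelial cells also express, had 178 to 316 and 268 to 763 counts, and Zfpm1, a cofactor of GATA factors, had 256 to 524. Of 12 genes listed 7 were tested, and 0 passed in edgeR's test. Epor, the erythropoietin receptor, stood at 0.875, 0.601 and 0.600 CPM in control and at 1.75, 1.46 and 1.46 CPM in the Ang II libraries, without overlap (log2 change 1.17, SE 0.30, edgeR adjusted p = 0.462). DESeq2 called it higher. Kit, a receptor of blood progenitors and mast cells, and Sox6 gave log2 changes of -0.44 (SE 0.20) and 0.41 (SE 0.19).

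Genes of haem synthesis other than Alas2 gave small changes. All 12 listed were tested, 0 passed by edgeR or DESeq2 and 0 reached an unadjusted p under 0.05; 4 folds were below 0 and 8 above, with a median log2 change of 0.17. Alas1, the form of the enzyme that all tissues use, stood at 40.8, 70.3 and 56.8 CPM in control and at 8.33, 69.9 and 69.7 CPM in the Ang II libraries. Only Ang II replicate 1 was low. Fech, which inserts iron in the last step of haem synthesis, gave a log2 change of 0.01 (SE 0.21, edgeR adjusted p = 0.991). The 3 genes of smallest p were Abcb6, Alad and Tmem14c, with log2 changes of 0.41 (SE 0.19), 0.37 (SE 0.18) and 0.32 (SE 0.20).

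**Figure D4:**
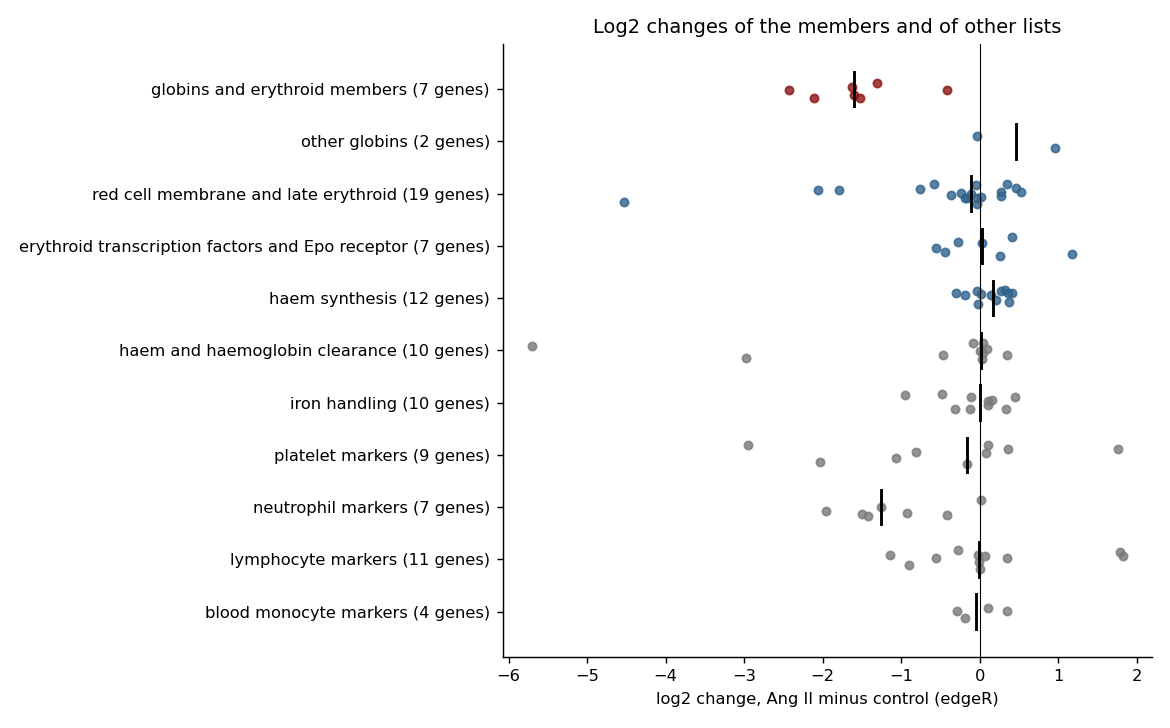
Log2 changes (Ang II minus control, x axis) of the 7 genes and of the tested genes of 10 other lists; each point is 1 gene and the black bar is the list's median. The 7 genes have a median of -1.60, and the 4 other erythroid lists lie around 0 with single genes far below.

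Genes that clear haemoglobin and haem included a pair with very uneven controls. Hp, which encodes haptoglobin, the plasma protein that binds free haemoglobin, stood at 12.5, 2.16 and 6.53 CPM in control and at 0.184, 1.22 and 1.24 CPM in the Ang II libraries. Hpx, which encodes the haem-binding plasma protein haemopexin, stood at 9.74, 0 and 5.76 CPM in control and at 0, 0 and 0.267 CPM in the Ang II libraries. The liver makes both proteins, and both were highest in control replicates 1 and 3, the libraries with 123 and 60.5 CPM of hepatocyte markers; the part of that tissue in these values was not tested. Neither passed edgeR's test (adjusted p = 0.499 and 0.593). DESeq2 called Hp and not Hpx. Hmox1, the inducible haem oxygenase, lay between 6.91 and 7.87 CPM in all 6 libraries (log2 change 0.03, SE 0.15, edgeR adjusted p = 0.963), and Cd163, the macrophage receptor for haptoglobin and haemoglobin, gave -0.47 (SE 0.25, edgeR adjusted p = 0.714).

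Of 10 iron handling genes tested, 0 passed by edgeR or DESeq2. Trf, which encodes transferrin, the plasma carrier of iron, stood at 39.6, 26.0 and 37.4 CPM in control and at 23.5, 14.4 and 15.4 CPM in the Ang II libraries. Its groups did not overlap (log2 change -0.95, SE 0.26, edgeR adjusted p = 0.487). Trf too was highest in control replicates 1 and 3, the libraries with hepatocyte transcripts, and without them its log2 change was -0.57. The part of those transcripts in the Trf values was not tested. Slc11a2, an iron importer, and Hfe, a regulator of iron uptake, gave log2 changes of -0.31 (SE 0.15) and -0.48 (SE 0.31). The transferrin receptor Tfrc gave 0.10 (SE 0.21).

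Relatives of Bpgm and Slc4a1 were listed beside them, and 0 of 8 tested passed by edgeR or DESeq2. The muscle phosphoglycerate mutase Pgam2, at 459 to 501 CPM in control and 521 to 883 CPM in Ang II hearts, gave a log2 change of 0.42 (SE 0.24, edgeR adjusted p = 0.728), Pgam1 gave 0.12 (SE 0.14) and Minpp1 gave 0.06 (SE 0.18). Slc4a3, the anion exchanger of heart and brain, lay between 128 and 147 CPM in all 6 libraries (log2 change -0.01, SE 0.14, edgeR adjusted p = 0.988). Slc4a2, found in most tissues, gave -0.38 (SE 0.15, edgeR adjusted p = 0.658), Slc4a8 gave -1.05 (SE 0.73) and Slc4a4 gave -0.30 (SE 0.35).

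Markers of other blood cells were low and uneven. By edgeR and DESeq2, 0 of 31 tested genes of platelets, neutrophils, lymphocytes and monocytes passed. Folds were below 0 for 19 (49.1% of all genes) and above 0 for 12. At an unadjusted p under 0.05, 3 were lower in edgeR (3.94% of all genes). Without overlap, 7 were lower (9.21% of all genes) while 0 were higher. The median log2 change of the 31 was -0.18, and -0.56 without Ang II replicate 1. Platelet markers, 9 tested of 14, had a median of -0.16, or -0.56 without Ang II replicate 1, and summed to between 21.3 and 24.7 CPM in control and to 30.4, 12.2 and 16.2 CPM in the Ang II libraries. The platelet chemokine gene Ppbp stood at 0.569, 2.27 and 1.71 CPM in control and at 0.437, 0.398 and 0.281 CPM in Ang II, so its highest control was replicate 2, where the globins were lowest (log2 change -2.03, SE 0.55, edgeR adjusted p = 0.487). Alox12, a lipoxygenase of platelets, and Gp9, part of a platelet adhesion receptor, gave -1.06 (SE 0.30) and -2.95 (SE 1.30). Of the 9 platelet genes tested, 5 folds were below 0 and 4 above. Those above were Gp1bb (1.76, SE 1.42), Gp1ba (0.36, SE 0.41), Pf4 (0.10, SE 0.40) and Itgb3 (0.08, SE 0.62). Pf4 made up 17.7 of the 30.4 CPM in Ang II replicate 1.

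Neutrophil markers, 7 tested of 13, had a median log2 change of -1.26, with 6 of 7 folds below 0 (49.1% of all genes). The list summed to 18.0, 11.0 and 7.03 CPM in control and to 5.57, 7.89 and 7.21 CPM in the Ang II libraries, so the groups overlapped. Its secreted calcium-binding genes S100a8 and S100a9 gave -1.43 (SE 0.43) and -1.50 (SE 0.66), and Mmp9, a matrix protease, gave -1.26 (SE 0.81). The granule genes Ngp, Camp, Elane and Mpo were at 0 counts in all 6 libraries. Lymphocyte markers, 11 tested of 14, had a median of -0.01, or -0.76 without Ang II replicate 1, with 6 folds below 0 and 5 above. The B cell genes Cd79a and Ighm gave -0.90 (SE 0.47) and -0.56 (SE 0.31). Among those above 0 were Cd3g at 1.79 (SE 1.08), Gzma at 1.82 (SE 1.17) and the B cell gene Cd79b at 0.35 (SE 0.96). Blood monocyte markers, 4 tested of 5, had a median of -0.04, or -0.14 without Ang II replicate 1, and included Ccr2 (-0.29, SE 0.24) and Plac8 (0.35, SE 0.47).

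Endothelial cells line the vessels that hold blood. Of 12 of their markers tested, 0 passed in edgeR's test, and DESeq2 called 2 lower (0.698% of all genes). Folds were below 0 for 8 (49.1% of all genes), with a median of -0.27. Pecam1, Cdh5, Kdr, Tek, Tie1 and Vwf, 6 of the 12, were lower in every Ang II library than in any control (9.21% of all genes). Kdr, Vwf and Tek had the smallest p, with log2 changes of -0.77 (SE 0.16), -0.59 (SE 0.14) and -0.48 (SE 0.15). The list summed to between 1645 and 1989 CPM in control and to 2179, 1493 and 1478 CPM in the Ang II libraries, and Fabp4, which fat cells also express, made up 1036 of the 2179 CPM in Ang II replicate 1. That library was the highest for the sum but the lowest of all 6 for Cdh5, Kdr, Tek, Tie1 and Vwf. Macrophage markers, 8 tested, had a median of 0.04, or -0.26 without Ang II replicate 1, with Adgre1 at -0.88 (SE 0.33), C1qa at 0.43 (SE 0.40) and Cd68 at -0.19 (SE 0.21). The 3 cardiomyocyte genes of smallest p were Actn2, Pln and Tnni3, at 0.37 (SE 0.16), 0.34 (SE 0.17) and 0.28 (SE 0.21). The part of these cell types in the globin values was not tested.

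**Figure D5:**
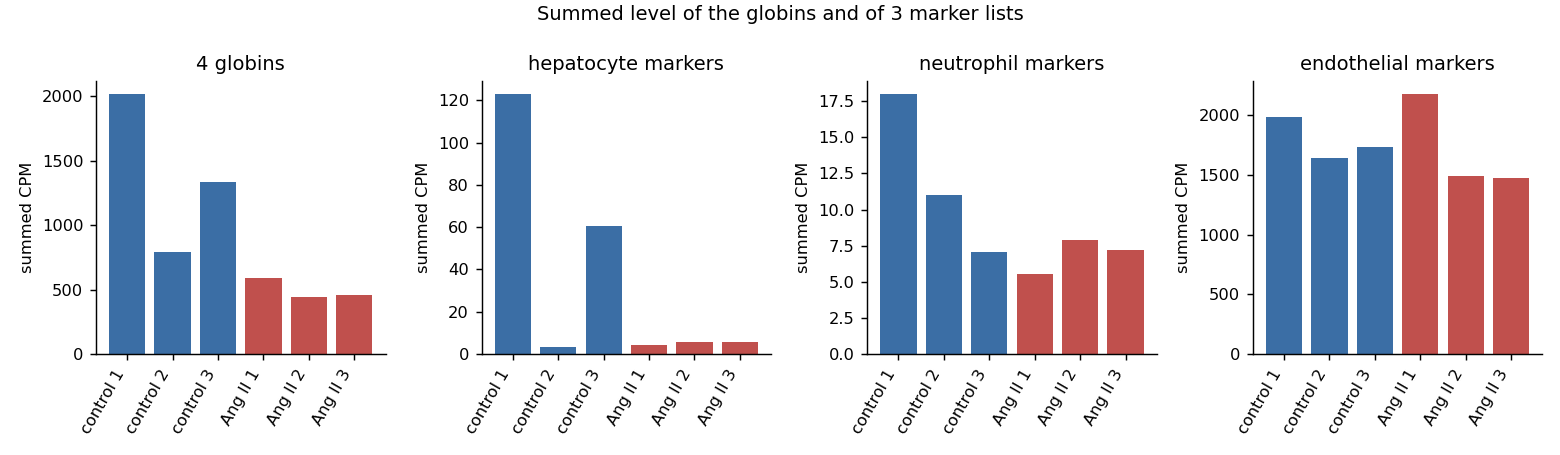
Summed CPM (y axis, from 0) of the 4 globins and of the hepatocyte, neutrophil and endothelial marker lists in each library. Control replicates 1 and 3 stand out for the globins and for hepatocyte markers, whereas the endothelial sum, to which Fabp4 gives 1036 of 2179 CPM there, is highest in Ang II replicate 1.

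Genes whose pattern over the 6 libraries was most like that of the globins were found by the root-mean-square difference between centred log2(CPM + 0.5) profiles, among 12974 genes with a mean of at least 1 CPM. The reference was the mean profile of the 4 globins, so the first 4 ranks, which they took themselves, were largely set in advance. Alas2 took the 6th rank and Bpgm the 418th. The measure also counts the size of a change, and Bpgm ranked low with r = 0.955. The gene most like the globins outside the 7 was Car3, a carbonic anhydrase of muscle and fat (0.274, r = 0.943). It stood at 4.62, 1.55 and 2.58 CPM in control and at 0.506, 0.839 and 0.942 CPM in the Ang II libraries. It was followed by Ciart, a repressor of the circadian clock (0.283), Clcn1, the muscle chloride channel (0.331), the potassium channel gene Kcna6 (0.341), Trf (0.344) and Anks1 (0.344). The next were Alox12 (0.363), Arhgap18 (0.365), Adam23 (0.368) and Cflar, an inhibitor of caspase activation (0.376). All 10 were lower in every Ang II library than in any control, and none passed edgeR's test over all genes (adjusted p from 0.133 to 0.556). Likeness here includes the difference between the groups.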

How the data were processed

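Poly(A) RNA of 3 control and 3 Ang II hearts was sequenced, 1 library each. The submitters' processing notes list StringTie 1.3.0, HISAT2 2.0, Bowtie 0.12.2 and build mm8, with no roles. The deposited positions of 51920 of 55141 shared gene IDs (94.2%) and of 5 of the 7 members were those of GENCODE M21, so positions are given as GRCm38. The estimated counts, whole in the deposited table, entered unchanged. The authors' FPKM values, where 0.0001 stands for 0, were used as deposited to compare genes.

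The test was that of edgeR 4.0.16 (quasi-likelihood, TMM scaling, filterByExpr, two-sided) in R 4.3.3, with a Benjamini-Hochberg adjusted p under 0.05 over 16759 genes. Estimated counts are treated as if they were counts. The SE is the log2 change over the root of the test statistic, and CPM uses the scaled library sizes. DESeq2 1.42.0 and limma 3.58.1 on log2(FPKM + 0.5), for genes with at least 0.5 FPKM in 3 libraries, were run beside it. The fit was tested on simulated data. Plots used matplotlib 3.10.9 under Python 3.11.15.

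The members and lists were chosen with earlier results of these data known. Named genes were the members, every listed gene past the threshold, the 3 of smallest p in a list, 12 set genes and the 10 most like the globins; others were chosen after their values were seen. Some genes this rule names are not reported here. Lists of hepatocyte and adipocyte markers were added after the data were seen. Alternatives covered scaling, test, filter, pseudocount, the replicate number as a block and libraries left out. Libraries of a group differed by a chi-square per degree of freedom of 34.1 to 483, so none was a repeat deposit. The labels name 3 hearts per group and no batch. Strand and the roles of the tools are not given in the sources used here, and counting intervals and limits for a count of 0 cover counting error only.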

Additional observations from a re-analysis of the deposited data

How the results depend on the processing

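Over all genes, 6 passed with all libraries. The count was 12 with no filter on low counts, 0 under the replicate block, 276 with DESeq2, 3 with limma on FPKM and 0 without control replicates 1 and 3; leaving out 1 library gave 0 to 129, the highest without Ang II replicate 1. Of 40 erythroid genes tested outside the 7, DESeq2 called 3, 2 lower and 1 (Epor) higher, beside 1.65% of all genes. EdgeR called 0, beside 0.0358% of all genes. At an unadjusted p under 0.05 edgeR gave 4, 2 lower and 2 higher, beside 3.94% of all genes lower and 3.57% higher. All 104 values of the members' log2 changes under the alternatives were below 0, and 89 lay within 1 SD of the reported value. The alternatives refit the same libraries by which the members were chosen as lower. The shared sign was therefore largely set in advance and supports nothing further. Without control replicates 1 and 3, an alternative chosen after the data were seen that leaves 1 control assumed to vary like the Ang II libraries, the log2 changes were -0.68 for Hba-a1, -0.79 for Hba-a2, -0.63 for Hbb-bs, -0.75 for Hbb-bt, -1.30 for Alas2 and -0.055 for Slc4a1, and the log2 ratio of the globin share was -0.87. For Alas2, limma on log2(FPKM + 0.5) gave -1.63 and log2(FPKM + 1) means gave -1.41, and for Bpgm the latter gave -0.28. For Slc4a1 the block gave -3.72, log2(FPKM + 0.1) means -0.76 and log2(FPKM + 1) means -0.12. These pseudocounts shrink the changes of genes at low FPKM by construction; the cause of the other shifts was not tested. Leaving out 1 library at a time gave ranges of -1.82 to -1.17 for Hba-a1, -1.88 to -1.23 for Hba-a2, -1.57 to -0.91 for Hbb-bs, -1.92 to -1.25 for Hbb-bt, -2.40 to -1.72 for Alas2, -0.47 to -0.33 for Bpgm and -8.24 to -1.78 for Slc4a1, the lowest without Ang II replicate 1, where the Ang II libraries left are at 0. Deviations of same-numbered libraries from their group means gave r = 0.139, 0.171 and -0.0598 for numbers 1, 2 and 3; number 3 was not above 0.1, so the numbers were not taken as pairs for the block. At the depth of these libraries, genes under about 3 counts, such as Klf1 and the embryonic globins, cannot be told from 0.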

Other observations

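The extraction text in the labels speaks of adipose samples, whereas every sample is labelled heart and cardiomyocyte markers were abundant. Adipocyte markers, a list added after the data were seen, were close to 0. Adipoq stood at 0.436 CPM or less in every library, and Lep and Ucp1 had 0 counts in all 6. The list summed to 2.93, 3.08 and 3.65 CPM in control and to 0, 1.14 and 0.717 CPM in Ang II replicates 1, 2 and 3, where most of the control sum came from Cfd, which encodes the complement protease adipsin.

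The hepatocyte list ran across secreted plasma proteins and a liver enzyme. Apoa1, the main protein of high-density lipoprotein, stood at 18.2 and 8.49 CPM in control replicates 1 and 3 and at 0.184 CPM or less in the other 4 libraries. Serpina1a, Fgb and Fga had counts in those 2 libraries and 0 counts in each of the other 4. The cytochrome Cyp2e1 stood at 5.34 and 2.84 CPM in control replicates 1 and 3 and at 0.857 CPM or less elsewhere.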
